A study of Danio rerio with 6 samples.

Results

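Chemokines, interleukins and their receptors were followed in the regenerating heart of adult zebrafish (Danio rerio). The 80 genes were picked by a rule on names, though with earlier results of these data known. The rule takes every gene whose name in the authors' deposited comparison table starts like a member of these families. They are chemokines, chemokine receptors, numbered interleukins and their receptors, the interleukin-6 family and colony stimulating factors. Each gene also has a row in the deposited expression table of 32105 genes. The pattern found 98 names, of which 18 had no row under their identifier in the expression table, and the gene il7r was set aside by the rule. The 80 comprise 10 chemokines, 23 chemokine receptors, 27 interleukins and related cytokines, 17 receptors for these cytokines and 3 genes that the pattern takes in by spelling only.

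RNA was sequenced from 3 wild-type (WT) heart samples and 3 samples of Tg(hsp70l:DN-MAML), taken 5 days after amputation from fish that were 6 to 12 months of age, on the TU-AB background in both groups. DN-MAML is a dominant-negative Mastermind that blocks transcription by Notch, and it is driven by the heat shock promoter hsp70l, which is not limited to a cell type; its expression was not analysed here. Per the labels, the heat shock of 1 h at 38 C was given daily and is stated for both groups. The comparison asks which genes lie downstream of Notch in this heart, per the design text, and the labels do not say whether a sample is a single heart or a pool.

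Chemokines are small secreted proteins that bind receptors coupled to G proteins and steer leukocytes, and in zebrafish also vessel and progenitor cells, along their gradients. Atypical chemokine receptors bind chemokines without such coupling and take them out of the tissue. Interleukins and the interleukin-6 family act mostly through receptor chains that bind JAK kinases, which phosphorylate STAT factors, and SOCS proteins are induced by STAT factors and damp the signal. In zebrafish hearts, Cxcl12a and its receptor Cxcr4b have been tied to the movement of cardiomyocytes into the wound, Cxcl12b and Cxcr4a to coronary vessels, and interleukin-11 signalling is needed for regeneration.

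Values are FPKM (fragment counts divided by gene length and library size), so that levels can be set side by side between genes. Where 3 values stand in a row, they belong to replicates 1, 2 and 3 in that order. Expression was measurable for part of the family only: in WT, 11 of the 80 genes had a mean of at least 10 FPKM, 23 of 1 to under 10, 6 of 0.5 to under 1 and 34 of less, while 6 were listed at 0. The highest means over the 6 samples belonged to the receptor gene cxcr4b (36.3 FPKM), the chemokine genes cxcl-c1c (29.0 FPKM) and cxcl12a (26.0 FPKM), and the chemokine gene cxcl12b (19.7 FPKM). Among the cytokines, cntf (12.9 FPKM), a ligand of the interleukin-6 family, and il34 (9.66 FPKM), a ligand of the macrophage receptor Csf1r, had the highest levels. In the authors' deposited comparison table, il34 has a mean normalized count of only 46.7, against 810 for cntf and 603 for csf1a. At the other end, the interleukin-17 genes il17a/f1, il17a/f2 and il17a/f3, and il22 and il26, had means of at most 0.0117 FPKM, near or below the rounding step of 0.01 FPKM.

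**Figure D1:**
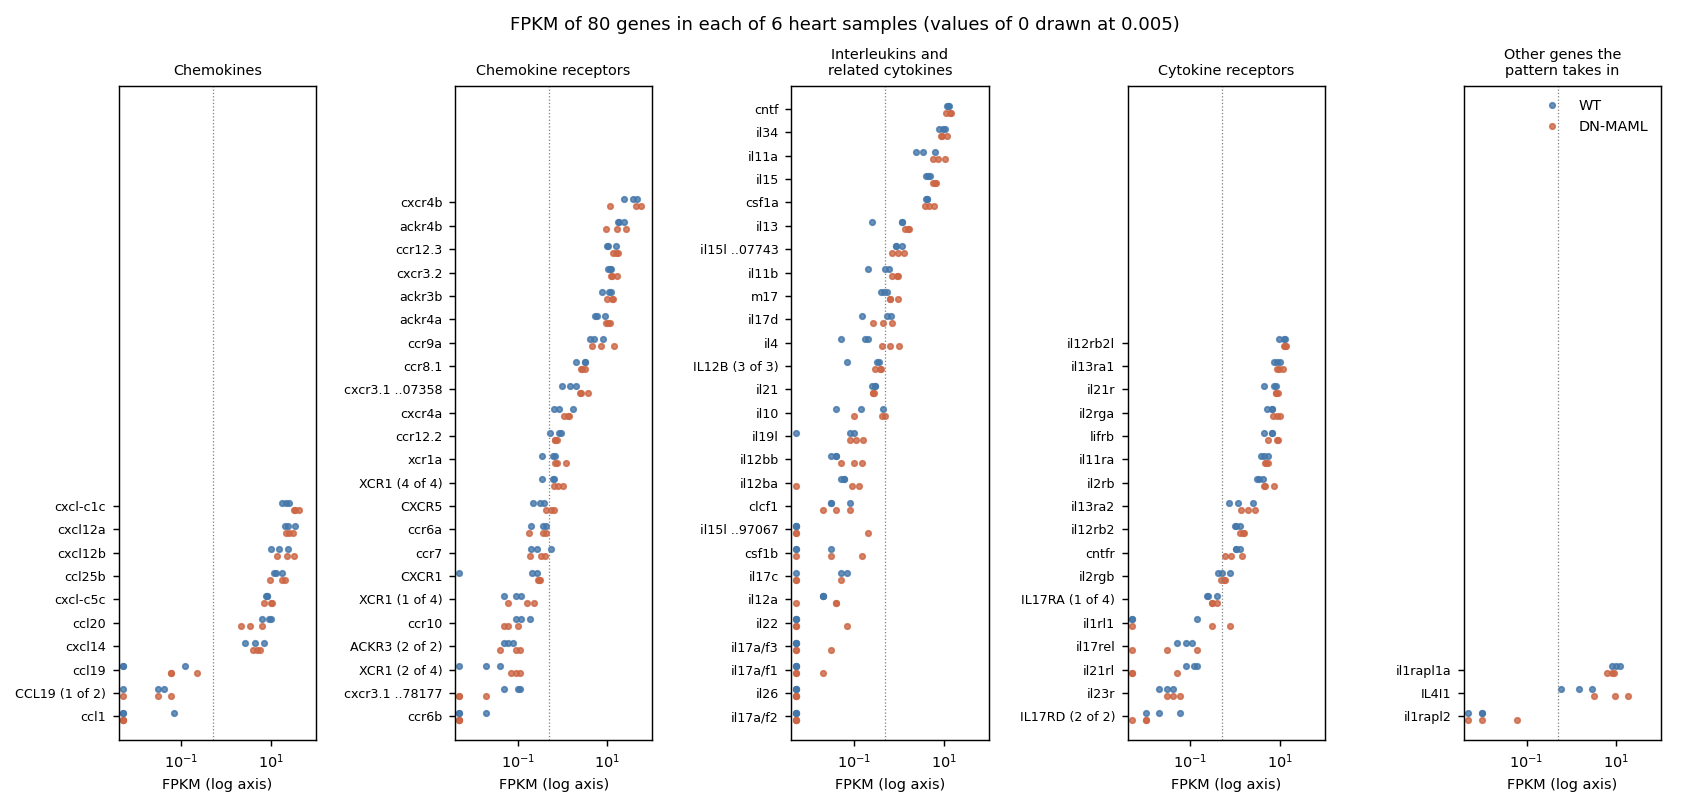
FPKM of each of the 80 genes (log axis) in 3 WT samples (blue) and 3 DN-MAML samples (orange), by class and ordered by the mean over 6 samples; the dotted line marks 0.5 FPKM, the minimum mean for testing, and names with dots are shortened gene identifiers. The 42 genes tested lie around or to the right of the line, and cxcr4b spreads more widely in DN-MAML than most other genes at its level.

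Together the 80 genes made up 0.0382%, 0.0298% and 0.0383% of all FPKM in WT, against 0.0405%, 0.0369% and 0.0513% in DN-MAML. WT replicate 2 was the lowest sample and DN-MAML replicate 3 the highest, and DN-MAML replicate 2 lay below WT replicates 1 and 3. Of the 80 genes, 42 reached a mean of 0.5 FPKM over the 6 samples and were tested, and 38 did not. Among those tested, 35 had a log2 change on the higher side in DN-MAML and 7 on the lower side, with a median of 0.24, where 55.1% of all 16556 genes tested were on the higher and 44.9% on the lower side and their median was 0.03. With no minimum the median over 78 genes was 0.14, and 59 of them were on the higher side. None of the 42 passed limma's test across all genes at an adjusted p of 0.05 (lowest adjusted p = 0.167), where 0.0544% of all genes passed as higher and 0.0423% as lower. At an unadjusted p under 0.05 there were 9 members higher and 1 lower, beside 6.99% and 6.23% of all genes. These counts were 5 and 1 when WT replicate 2 was left out, and 4 and 2 when DN-MAML replicate 3 was. Over all 16556 genes tested, both directions together, the count fell from 2189 to 1780 and to 1504 in these settings. Without WT replicate 1, which lies apart from the other WT samples on the main axis of variation (-1.3, against -33.8 and -25.9 for WT replicates 2 and 3 and 10.1 to 28.1 for DN-MAML), 1 member passed, ackr4a. With that sample left out, 180 of all 16556 genes tested passed in either direction, against 16 in all samples.

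The authors' deposited table, a DESeq2-type comparison of the same samples, gives an adjusted p for 48 of the 80 genes. It calls 2 of them higher in DN-MAML and 0 lower, cxcl-c1c and cxcr3.1, where it calls 2.11% of all its genes with an adjusted p higher and 2.27% lower. The groups did not overlap for 13 tested members on the higher side and 1 on the lower side, beside 9.83% and 8.98% of all genes tested. Over all 80 genes they did not overlap for 18 on the higher and 3 on the lower side, beside 7.01% and 5.89% of the expression table. WT replicate 2 held the lowest value of 22 of the 42 tested members (52.4%, against 38.8% of all genes tested), and DN-MAML replicate 3 the highest value of 21 (50%, against 24.8%).

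Leukocyte markers were mostly on the higher side as well, though 0 genes of the pan-leukocyte, macrophage, neutrophil, B cell and T and NK cell lists passed limma's test across all genes (lowest adjusted p of each list 0.167 to 0.281). Of those with an adjusted p, the authors' deposited table calls 3 of 12 macrophage, 1 of 5 B cell and 1 of 9 T and NK cell genes higher. It calls 0 of 8 pan-leukocyte and 0 of 8 neutrophil genes higher, and 0 of these 5 lists lower. Of all its genes with an adjusted p, 2.11% are called higher and 2.27% lower. The summed FPKM of 10 pan-leukocyte markers ranged from 180 to 254 in WT and from 251 to 297 in DN-MAML, with all 10 higher on average in DN-MAML and an overlap between the groups. The same sum ranged from 444 to 607 and from 581 to 774 for 15 macrophage genes (12 higher on average), and from 46.0 to 55.4 and from 54.6 to 69.6 for 8 neutrophil genes (7 higher on average), again with overlap. The 15 macrophage genes match 10 of 12 listed names, with several identifiers for mfap4 and none for the mpeg1 genes. Most of the neutrophil sum was nccrp1 (30.2 ± 2.38 and 34.9 ± 4.31 FPKM, SD, n = 3), which overlapped between the groups. For 7 B cell genes the sums were 7.67 to 15.2 in WT and 20.7 to 41.5 in DN-MAML, and for 10 T and NK cell genes 18.7 to 24.4 and 25.5 to 34.1, so that these groups do not overlap. Of the B cell genes, ighm had the highest mean in both groups (4.41 ± 3.52 and 17.2 ± 10.9 FPKM, SD, n = 3, limma, adjusted p = 0.321). The groups overlapped for cd79a and pax5, while 5 of the 7 were higher without overlap, ighm among them, beside 7.01% of the expression table. The T and NK cell sum includes cd3eap, a gene not specific to T cells and the highest of the 10 in WT. cd3eap overlapped between the groups (7.52 ± 0.376 and 7.15 ± 0.459 FPKM, SD, n = 3) with a log2 difference of -0.07. Of the 10 T and NK cell genes, 4 were higher without overlap, beside the same 7.01%, and the others overlapped. Among other cell types, sums of 10 erythroid genes ranged from 18494 to 32765 in WT and from 11404 to 17311 in DN-MAML, without overlap. Most of this sum came from globin genes. Of the 10 erythroid genes, 3 were lower without overlap, beside 5.89% of the expression table, and the others overlapped. In limma 0 of them passed (lowest adjusted p = 0.163). Of 9 erythroid genes with an adjusted p, the authors' deposited table calls 0 higher and 3 lower. Sums of 6 epicardial genes, all 6 higher on average, ranged from 1239 to 2057 and from 1924 to 2221, with overlap. Most of this sum was krt8 (1236 ± 320 and 1525 ± 137 FPKM, SD, n = 3). The groups overlapped for tcf21, wt1b, aldh1a2 and tbx18 (limma, adjusted p from 0.650 to 0.882), and not for krt4 (0.167). In the authors' deposited table krt4 is called higher (adjusted p = 0.00172), as 1 of 6 epicardial genes, and 0 are called lower. Endothelial sums (6 genes, 178 to 216 in WT and 186 to 241 in DN-MAML) and thrombocyte sums (7 genes, 340 to 573 and 410 to 577) overlapped widely. Most of the thrombocyte sum was fn1b (387 ± 131 and 486 ± 99.8 FPKM, SD, n = 3), and 3 of the 7 genes were higher on average. gp1bb (15.5 ± 2.77 and 9.10 ± 1.91 FPKM) and gp9 (8.89 ± 3.11 and 4.40 ± 1.32 FPKM) were lower without overlap, gp9 barely. Neither passed (limma, adjusted p = 0.207 and 0.283), while the authors' deposited table gives 0.0686 and 0.0354. No marker of any of these lists was at 0 in all samples. In whole hearts, more cells of a type and more RNA per cell cannot be told apart, and the part of these markers in the values below was not tested. Defining heart muscle genes were present in every sample (8 genes, summing to 37218 to 50821 FPKM), all 8 lower on average in DN-MAML. The authors' deposited table calls 1 of the 7 with an adjusted p lower, vmhc (adjusted p = 0.000389), and 0 higher.

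**Figure D2:**
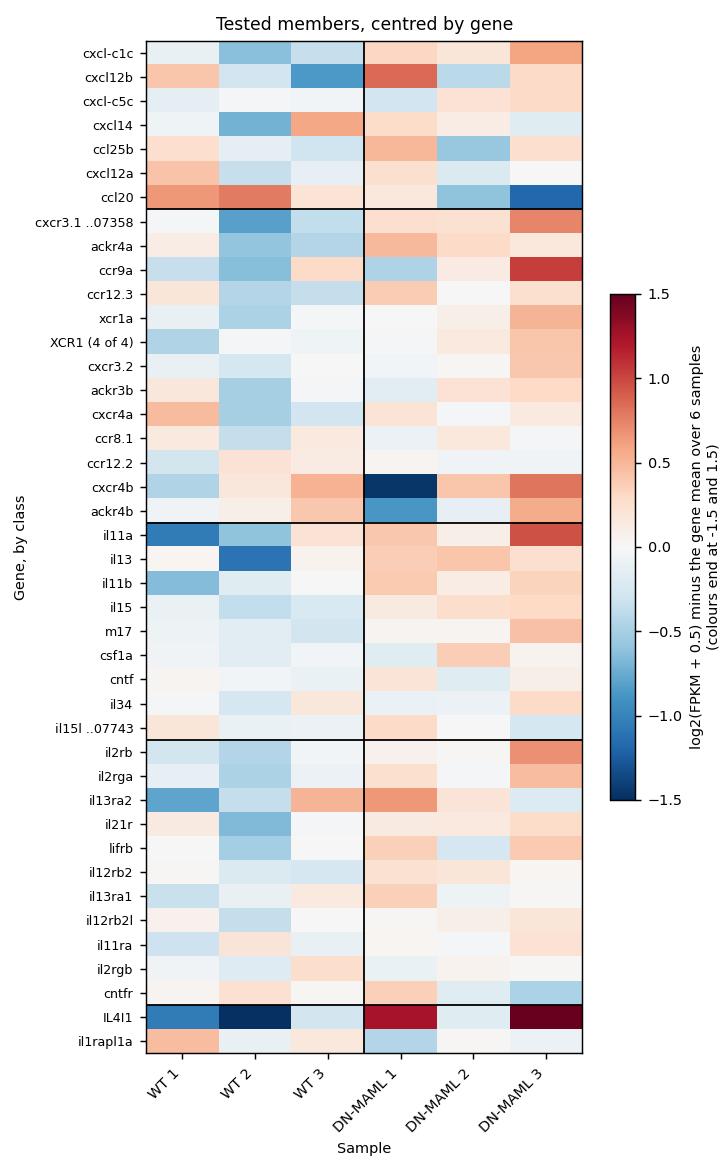
Log2(FPKM + 0.5) of the 42 tested members in the 6 samples, each gene centred on its own mean, by class (black lines) and ordered by the difference between groups. Blue is below and red above the gene's mean: WT replicate 2 is the lowest sample for 22 genes, DN-MAML replicate 3 the highest for 21, and DN-MAML replicate 1 is the lowest for cxcr4b and ackr4b.

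Among the chemokines, cxcl-c1c, which the gene name table calls cxcl18b, a chemokine that attracts neutrophils in zebrafish, stood out on the higher side. WT samples had 25.70, 17.94 and 21.87 FPKM, and DN-MAML samples 34.61, 31.75 and 42.23 FPKM. All 3 DN-MAML samples lay above all WT samples. The log2 change was 0.72 (SE 0.16), which did not pass over all genes (limma, adjusted p = 0.167). For cxcl-c1c the authors' deposited table has a log2 change of 0.67 (SE 0.15) with an adjusted p of 0.00117, from a mean normalized count of 1572.

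On the lower side was ccl20, called ccl20b in the gene name table, a chemokine that in mammals draws cells bearing CCR6. Its level was 8.90, 9.74 and 6.42 FPKM in WT and 6.16, 3.43 and 2.14 FPKM in DN-MAML. The groups did not overlap, although WT replicate 3 and DN-MAML replicate 1 lay close together. The log2 change of -1.09 (SE 0.35) did not pass (limma, adjusted p = 0.289), and the authors' deposited table gives -0.93 with an adjusted p of 0.0826. The receptor genes ccr6a and ccr6b had means of 0.325 and 0.00333 FPKM and were not tested.

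The Cxcl12 genes, after cxcl-c1c the chemokine genes with the highest mean level among the 80, overlapped between the groups. cxcl12a had 34.62, 20.09 and 23.40 FPKM in WT and 30.30, 21.99 and 25.73 FPKM in DN-MAML, a log2 difference of 0.02 (95% confidence interval -0.47 to 0.52; limma, adjusted p = 0.974). cxcl12b had 24.44, 14.81 and 9.82 FPKM in WT and 33.08, 13.60 and 22.23 FPKM in DN-MAML (log2 difference 0.48, interval -0.59 to 1.56; limma, adjusted p = 0.664). In each group replicate 1 was the highest sample for both genes. The remaining chemokines tested were ccl25b (13.95 ± 2.957 FPKM in WT and 15.8 ± 5.64 FPKM in DN-MAML; SD, n = 3), cxcl-c5c, named cxcl20 in the gene name table (7.96 ± 0.370 and 8.97 ± 1.89 FPKM), and cxcl14 (4.61 ± 2.22 and 4.80 ± 0.817 FPKM). Their log2 differences lay between 0.13 and 0.14, with adjusted p from 0.722 to 0.888 (limma). The homeostatic chemokine genes ccl19 and CCL19 (1 of 2), and ccl1, were below 0.12 FPKM on average in both groups.

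Of the chemokine receptors, 13 of 23 were tested, 10 on the higher and 3 on the lower side. cxcr3.1 (ENSDARG00000007358), of the CXCR3 family of receptors for interferon-induced chemokines, had 2.01, 0.95 and 1.49 FPKM in WT and 2.55, 2.5 and 3.75 FPKM in DN-MAML. The groups did not overlap, and the log2 change was 0.81 (SE 0.23; limma, adjusted p = 0.240). For this gene the authors' deposited table has 0.93 (SE 0.26) with an adjusted p of 0.0117. Another identifier with the name cxcr3.1 (ENSDARG00000078177) had 0.11, 0.05 and 0.10 FPKM in WT and 0.02, 0.00 and 0.00 FPKM in DN-MAML, the opposite order, at levels of a few rounding steps. The authors' deposited table gives this identifier a log2 change of 0.26 (p = 0.643, no adjusted p), so that its direction is not shared by the tables. The related cxcr3.2 had 11.2 ± 1.04 FPKM in WT and 13.6 ± 2.43 FPKM in DN-MAML (SD, n = 3; log2 difference 0.25; limma, adjusted p = 0.473).

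Atypical receptors were represented by ackr4a, ackr4b and ackr3b among those tested. ackr4a, whose mammalian counterpart scavenges CCL19, CCL21 and CCL25, had 8.87, 5.25 and 5.89 FPKM in WT and 11.65, 10.12 and 9.22 FPKM in DN-MAML. Every DN-MAML sample was above every WT sample, with WT replicate 1 closest to them. The log2 change was 0.62 (SE 0.19; limma, adjusted p = 0.258); without WT replicate 1 it was 0.83 with an adjusted p of 0.0425. Its paralog ackr4b had 16.87, 18.56 and 23.24 FPKM in WT and 9.35, 16.01 and 25.99 FPKM in DN-MAML, so that the DN-MAML samples lay below, below and above the WT range (log2 difference -0.29, interval -1.17 to 0.59; limma, adjusted p = 0.763). Whether the change of ackr4a differs from that of ackr4b was not tested. ackr3b, which removes Cxcl12 in zebrafish, had 10.1 ± 2.40 and 11.9 ± 2.02 FPKM (SD, n = 3; log2 difference 0.23; limma, adjusted p = 0.639).

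The Cxcl12 receptor gene cxcr4b had the highest mean level of all 80 genes and a wide spread. Its level was 23.40, 36.47 and 46.56 FPKM in WT and 11.41, 43.44 and 56.77 FPKM in DN-MAML. DN-MAML replicate 1 was the lowest of the 6 samples and DN-MAML replicate 3 the highest, and replicate 1 was also the lowest WT sample. The log2 difference was -0.16 with an interval of -1.82 to 1.51 (limma, adjusted p = 0.942), and 0.53 without DN-MAML replicate 1 (adjusted p = 0.592). Its paralog gene cxcr4a had 1.07 ± 0.596 and 1.24 ± 0.146 FPKM (SD, n = 3).

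The other receptors tested were ccr12.3 (11.8 ± 3.01 and 15.6 ± 2.18 FPKM; log2 difference 0.41; limma, adjusted p = 0.395), ccr9a, of the family that binds Ccl25 (5.69 ± 2.1 and 8.55 ± 4.81 FPKM), ccr8.1, ccr12.2, xcr1a and XCR1 (4 of 4) (SD, n = 3). The last 2 are named after XCR1, whose mammalian product marks cross-presenting dendritic cells, and their groups did not overlap, if barely: xcr1a had 0.35 to 0.67 FPKM in WT and 0.68 to 1.19 in DN-MAML, and XCR1 (4 of 4) had 0.34 to 0.63 and 0.64 to 1.04. Neither passed (limma, adjusted p = 0.450 and 0.462). Reads that fit several copies of XCR1 could be split between them, and the copies' sequences were not compared. Of the 10 receptors not tested, CXCR5, which guides B cells in mammals, had 0.22 to 0.38 FPKM in WT and 0.42 to 0.66 FPKM in DN-MAML, and is also among the 7 B cell genes above. Of the others not tested, CXCR1 and XCR1 (2 of 4) had groups that did not overlap, at means of 0.228 and 0.055 FPKM over the 6 samples.

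Among the cytokines, all 9 tested were on the higher side and 4 had groups that do not overlap, beside 55.1% and 9.83% of all genes tested. Interleukin-15, encoded by il15, which sustains NK and memory T cells in mammals, had 4.97, 4.04 and 4.51 FPKM in WT and 5.91, 6.50 and 6.69 FPKM in DN-MAML. The spread within each group was small (SD 0.465 and 0.407, n = 3), and all DN-MAML samples were above all WT samples. The log2 change was 0.46 (SE 0.11; limma, adjusted p = 0.196), and the authors' deposited table gives 0.36 with an adjusted p of 0.159. The related il15l (ENSDARG00000007743) had 0.953 ± 0.170 and 0.973 ± 0.281 FPKM (SD, n = 3), a log2 difference of 0.01.

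The interleukin-11 genes were on the higher side as a pair. il11a had 2.37, 3.39 and 6.37 FPKM in WT and 7.31, 5.78 and 10.93 FPKM in DN-MAML. WT replicate 3 lay above DN-MAML replicate 2, so the groups overlapped. For il11b the levels were 0.21, 0.49 and 0.61 FPKM in WT and 0.97, 0.71 and 0.91 FPKM in DN-MAML, with no overlap. Log2 changes were 0.96 (SE 0.37) for il11a and 0.56 (SE 0.21) for il11b, neither past the threshold (limma, adjusted p = 0.350 and 0.326). The receptor gene il11ra, whose product binds interleukin-11 together with gp130, had 4.47 ± 0.882 FPKM in WT and 4.98 ± 0.471 FPKM in DN-MAML (SD, n = 3; log2 difference 0.15, interval -0.20 to 0.50; limma, adjusted p = 0.686).

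Other ligands of the interleukin-6 family gave no common change. The level of cntf, the gene for ciliary neurotrophic factor, was 13.21, 12.46 and 12.00 FPKM in WT and 14.83, 11.26 and 13.75 FPKM in DN-MAML (log2 difference 0.07, interval -0.21 to 0.35; limma, adjusted p = 0.834). The fish cytokine gene m17 had 0.40 to 0.53 FPKM in WT and 0.62 to 0.98 FPKM in DN-MAML without overlap (limma, adjusted p = 0.447), and clcf1 had a mean of 0.0467 FPKM in each group. Of their receptors, lifrb, the gene for a leukemia inhibitory factor receptor, had 5.92 ± 1.23 and 7.69 ± 1.89 FPKM (SD, n = 3) and cntfr had 1.1 ± 0.127 and 0.940 ± 0.433 FPKM.

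The ligands of the macrophage receptor Csf1r overlapped between the groups. il34 had 9.47, 7.97 and 10.84 FPKM in WT and 8.88, 8.98 and 11.83 FPKM in DN-MAML (log2 difference 0.06, interval -0.30 to 0.43; limma, adjusted p = 0.887). For this identifier the authors' deposited table has -0.45 from a mean normalized count of 46.7, and for another il34 identifier, with no FPKM here, 0.23 from 180. csf1a had 4.19 ± 0.226 FPKM in WT and 4.82 ± 1.03 FPKM in DN-MAML (SD, n = 3; limma, adjusted p = 0.665), and csf1b had 0.01 and 0.06 FPKM on average.

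Low levels were measured for il13 and il4, the genes for interleukins 13 and 4. il13, whose mammalian product drives alternative macrophage activation, had 1.15, 0.25 and 1.18 FPKM in WT and 1.58, 1.65 and 1.40 FPKM in DN-MAML. The groups did not overlap, with WT replicate 2 far below the rest (log2 change 0.68, SE 0.31; limma, adjusted p = 0.403). il4 had 0.18, 0.05 and 0.20 FPKM in WT and 1.00, 0.41 and 0.65 FPKM in DN-MAML, again without overlap. Its mean was under 0.5 FPKM and it was not tested here; in the authors' deposited table its log2 change is 1.52 (SE 0.57, unadjusted p = 0.00741, no adjusted p), from a mean normalized count of only 5.73. A second il4 identifier, with no FPKM row, is at -0.22 in the authors' deposited table, from a mean normalized count of 1.43. The receptor gene il13ra1 had 8.62 ± 1.51 and 9.97 ± 1.70 FPKM (SD, n = 3; limma, adjusted p = 0.621), and il13ra2, in mammals a decoy for interleukin-13, had 0.72, 1.15 and 2.52 FPKM in WT and 2.82, 1.91 and 1.34 FPKM in DN-MAML.

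Further members were below the minimum for testing. il10, an anti-inflammatory cytokine gene, had 0.04, 0.14 and 0.44 FPKM in WT and 0.10, 0.43 and 0.49 FPKM in DN-MAML. il21 lay between 0.25 and 0.29 FPKM in all 6 samples. The interleukin-12 subunit gene il12bb had 0.04, 0.03 and 0.04 FPKM in WT and 0.15, 0.10 and 0.05 FPKM in DN-MAML, without overlap but within a few rounding steps. The gene for the interleukin-33 receptor, il1rl1, had 0.00, 0.00 and 0.14 FPKM in WT and 0.00, 0.76 and 0.31 FPKM in DN-MAML.

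**Figure D3:**
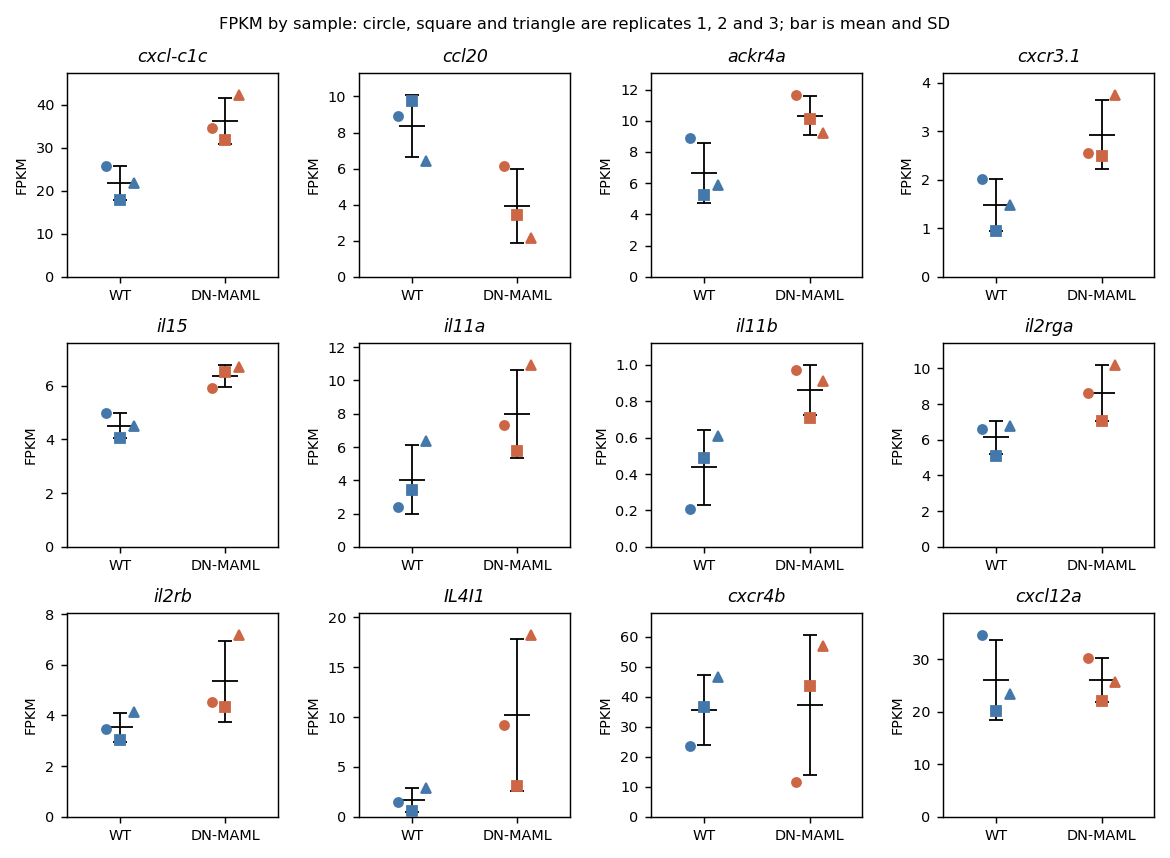
FPKM of 12 members in each sample (circle, square and triangle for replicates 1, 2 and 3), with the group mean and SD as bars; cxcr3.1 is ENSDARG00000007358. For cxcl-c1c, ackr4a, cxcr3.1, il15, il11b, il2rga, il2rb and IL4I1 the DN-MAML samples all lie above the WT samples, for ccl20 all below, and for il11a, cxcr4b and cxcl12a the groups overlap.

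Receptor chains for interleukins 2 and 15 had a like order of samples. il2rga, the common gamma chain used by the receptors for interleukins 2, 4, 7, 15 and 21, had 6.59, 5.08 and 6.76 FPKM in WT and 8.64, 7.07 and 10.18 FPKM in DN-MAML. Its partner il2rb, the beta chain for interleukins 2 and 15, had 3.45, 3.02 and 4.15 FPKM in WT and 4.52, 4.33 and 7.18 FPKM in DN-MAML. For both genes WT replicate 2 was lowest, DN-MAML replicate 3 highest, and the groups did not overlap. Log2 changes were 0.45 (SE 0.16) for il2rga and 0.51 (SE 0.20) for il2rb, and neither passed (limma, adjusted p = 0.300 and 0.342). il2rb is also among the 10 T and NK cell genes above. il2rgb, a second gamma chain gene, had 0.563 ± 0.176 and 0.543 ± 0.0569 FPKM (SD, n = 3; log2 difference -0.02).

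il21r had 8.15, 4.47 and 7.30 FPKM in WT and 8.14, 8.24 and 9.07 FPKM in DN-MAML, where WT replicate 1 lay within the DN-MAML range (log2 difference 0.37; limma, adjusted p = 0.469). il21rl, called il21r.2 in the gene name table, had 0.12, 0.08 and 0.14 FPKM in WT and 0.05, 0.00 and 0.00 FPKM in DN-MAML, the reverse order, at a level too low to be tested. The receptor genes il12rb2l (11.4 ± 1.79 and 12.95 ± 0.805 FPKM) and il12rb2 (1.09 ± 0.163 and 1.45 ± 0.139 FPKM; SD, n = 3) had log2 differences of 0.19 and 0.30 (limma, adjusted p = 0.559 and 0.431). The groups did not overlap for il12rb2, and il23r, the gene for the interleukin-23 receptor, had 0.02 to 0.06 FPKM.

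Some members are neighbours in the genome. By the order of genes on the RefSeq assembly GRCz12tu, where 71 of the 80 genes were placed by symbol, il21r and il21rl are close neighbours, as are il12rb2 and il23r, il11ra and cntfr, and il10 and il19l. Close means that at most 3 steps separate them in the order of protein-coding genes. il17a/f1 and il17a/f2, and il22 and il26, are neighbours too, all near 0 as given above. Other neighbours differed in level: il21r and il21rl did as above, and il11ra (4.72 FPKM over the 6 samples) and cntfr (1.02 FPKM) had log2 differences of 0.15 and -0.19.

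Of the 3 genes that the pattern takes in by spelling, IL4I1 had the largest log2 change of the 42 genes tested. IL4I1 is not an interleukin but an L-amino acid oxidase induced by interleukin-4 in mammalian B cells and made by antigen-presenting cells. Its level was 1.5, 0.59 and 2.91 FPKM in WT and 9.20, 3.13 and 18.23 FPKM in DN-MAML. The groups did not overlap, but DN-MAML replicate 2 lay just above WT replicate 3. The log2 change of 2.16 (SE 0.72, interval 0.33 to 3.98) did not pass (limma, adjusted p = 0.321), and the authors' deposited table gives 1.65 (SE 0.55) with an adjusted p of 0.0533. il1rapl1a, a relative of the interleukin-1 receptor that organizes synapses in mammals, had 12.11, 7.96 and 9.74 FPKM in WT and 6.22, 8.75 and 8.13 FPKM in DN-MAML (log2 difference -0.34; limma, adjusted p = 0.446). il1rapl2, its close relative, had a mean of 0.015 FPKM.

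**Figure D4:**
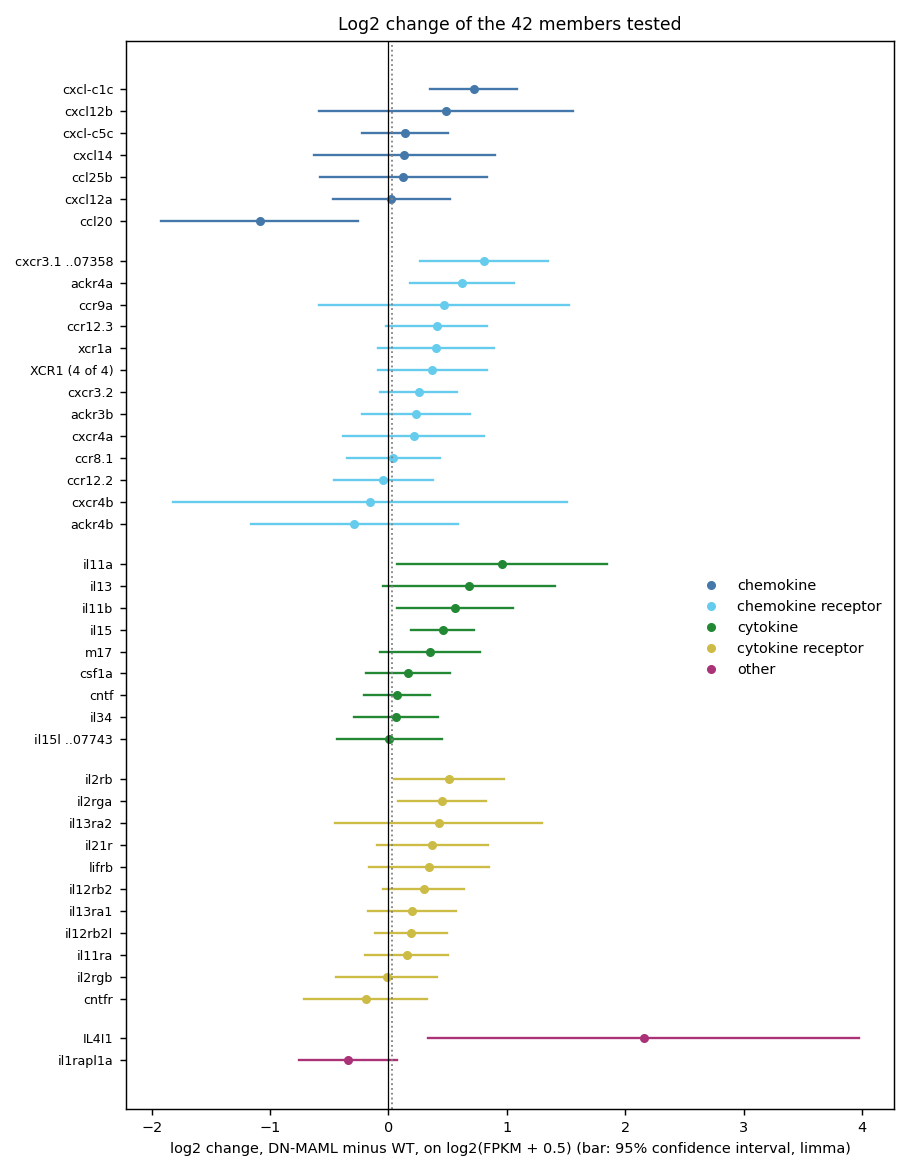
Log2 change (DN-MAML minus WT, on log2(FPKM + 0.5)) of the 42 members tested, with limma's 95% confidence interval, by class; the solid line is 0 and the dotted line the median of all genes tested (0.03). Most points lie to the right of both lines, the interval of ccl20 lies to the left of 0, and the intervals of cxcr4b and IL4I1 are the widest.

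Signalling genes inside the cell were read from the same fit. In the JAK, STAT and SOCS list, 18 of 23 tested were on the higher side (median log2 change 0.21) and 0 passed in either direction, with 4 higher and 0 lower at an unadjusted p under 0.05. Over all genes tested, 55.1% were on the higher side, and 6.99% were higher and 6.23% lower at that p. socs1b, an inhibitor of JAK kinases, had 1.29, 0.84 and 1.51 FPKM in WT and 2.56, 2.02 and 3.1 FPKM in DN-MAML (log2 change 0.84, SE 0.20; limma, adjusted p = 0.185). jak1, the kinase of the common gamma chain and gp130 receptors, had 29.57, 24.51 and 27.69 FPKM in WT and 40.72, 30.32 and 39.92 FPKM in DN-MAML (log2 change 0.43, SE 0.14; limma, adjusted p = 0.277). For both, all DN-MAML samples were above all WT samples. The authors' deposited table calls 2 of the 20 genes of this list with an adjusted p higher and 0 lower, beside 2.11% and 2.27% of all its genes with one. They are the SOCS genes socs3b (log2 change 1.22, adjusted p = 0.00184) and socs2 (0.68, adjusted p = 0.0356), named after their values were seen, as are the next. socs3b had 16.71, 16.86 and 15.35 FPKM in WT and 65.61, 21.80 and 39.48 FPKM in DN-MAML, so that the WT samples were close together, the DN-MAML samples were spread widely, and the groups did not overlap. Its paralog gene socs3a had 65.96, 120.93 and 207.71 FPKM in WT and 21.18, 124.03 and 44.18 FPKM in DN-MAML, which overlap (log2 difference -1.27, SE 0.77; limma, adjusted p = 0.531). socs3a had the largest difference of the list in size, and it was on the lower side, while in the authors' deposited table socs3a is at 0.25 (adjusted p = 0.874). jak2a was also on the lower side, with 17.9 ± 2.72 FPKM in WT and 14.3 ± 2.48 FPKM in DN-MAML (SD, n = 3; log2 difference -0.32; limma, adjusted p = 0.427).

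In the list from interleukin-1 and Toll receptors to NF-kB, 22 of 25 were on the higher side (median 0.14), with 0 past the threshold and 1 higher at an unadjusted p under 0.05. Over all genes tested, 55.1% were on the higher side and 6.99% were higher at that p. nfkb2, an NF-kB subunit gene, had 14.84, 10.65 and 13.57 FPKM in WT and 16.12, 16.58 and 19.76 FPKM in DN-MAML, and relb had 9.25 ± 1.2 and 11.5 ± 1.46 FPKM (SD, n = 3; limma, adjusted p = 0.294 and 0.386). Among signalling genes downstream of chemokine receptors, 9 of 16 were on the higher side (median 0.05) and 0 passed. At an unadjusted p under 0.05, beside the same 6.99% of all genes tested, 1 was higher. That gene was rac2, the leukocyte Rac GTPase gene (23.5 ± 3.59 and 30.3 ± 0.335 FPKM; SD, n = 3; limma, adjusted p = 0.283), which is also among the pan-leukocyte markers, and wasb followed (adjusted p = 0.406). All 4 colony stimulating factor receptor genes were on the higher side (median 0.18, 0 past the threshold), beside the same 55.1% of all genes tested. Among them, csf1ra and csf1rb are also macrophage markers and csf3r is also a neutrophil marker in the lists above. csf1ra, the macrophage receptor gene for Il34 and Csf1, had 25.08, 16.89 and 24.48 FPKM in WT and 27.72, 25.27 and 31.63 FPKM in DN-MAML without overlap (limma, adjusted p = 0.404). csf2rb had 2.95 ± 0.715 and 3.44 ± 0.561 FPKM (SD, n = 3).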

How the data were processed

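RNA-seq of 6 zebrafish heart samples was used as deposited. The submitters' processing notes name STAR, featureCounts, cutadapt, FastQC and DESeq2 without versions or roles. Build, annotation and the tool behind the FPKM: not given in the sources used here. Deposited FPKM were rounded to 0.01, and the authors' comparison table holds, per the file headers, a mean normalized count (a signal averaged over samples), a log2 fold change with standard error, a score (their ratio) and p-values in DESeq2's format. Counts per sample were not used, so the depth is unknown; the FPKM add up to 852778 to 914709 per sample.

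For genes with a mean of at least 0.5 FPKM, log2(FPKM + 0.5) was compared in limma 3.58.1 (R 4.3.3; trended, robust), with Benjamini-Hochberg adjustment over all 16556 genes and a threshold of 0.05. Fold changes are on that scale, which understates changes of low genes. SE and 95% intervals are limma's. The fit was tested on simulated data. With 3 against 3 samples, a two-sided exact permutation test could give at least 0.1, so single genes have none. As the samples' origin is not stated, p-values cover only their own spread, which may be technical. Members and lists were chosen with earlier results of these data known.

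Named genes were members with an unadjusted p under 0.05 or past the threshold in the authors' table, the 3 highest of each class, a set of well-known names (il1b, cxcl8a, il11a, il34, il6st, il4r, il10, csf1a, csf1b and the cxcl12 and cxcr4 genes), and the 2 lowest p of each list; others were chosen after their values were seen. Python 3.11.15 with pandas 2.3.3 was used. No gene or protein sequence was used here.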

Additional observations from a re-analysis of the deposited data

How the results depend on the processing

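The number of members called was 0 higher and 0 lower in all samples and under the 14 alternatives (pseudocount, minimum, scaling, variance estimate, block, a sample left out), except 1 higher without WT replicate 1 (range 0 to 1 over the samples left out): ackr4a, with a log2 change of 0.83 (limma, adjusted p = 0.0425; 0.168 to 0.521 under the others). Leaving out WT replicate 1 also raised the number called over all 16556 genes tested, from 16 to 180. The median change of the tested members stayed above 0 (0.14 to 0.30), as did the difference from the median of all genes, and 73.8% to 86.7% of them were on the higher side, against 45.4% to 59.6% of all genes. The list counts stayed at 0. The median of the list downstream of chemokine receptors was -0.0056 without WT replicate 2. Single genes were followed only where named by rule (and ccl38a.4 and ccl38.6), not for every member tested, and among them some log2 differences near 0 changed sign: that of cxcl12a with median-ratio scaling (-0.012), and with a sample left out those of cxcl12a (-0.14 to 0.245; below 0 without DN-MAML replicate 1, WT replicate 2 or WT replicate 3), cxcr4b (-0.599 to 0.534; above 0 without DN-MAML replicate 1 or WT replicate 3), il34 (-0.064 to 0.166; below 0 without DN-MAML replicate 3 or WT replicate 2), ackr4b (-0.641 to 0.073) and cntf (-0.011 to 0.18), the last pair without DN-MAML replicate 1. The cause was not tested. Same-numbered samples did not all deviate together (r = 0.208, -0.0264 and 0.140 over genes for numbers 1, 2 and 3). Pairs of unlike number had r from -0.224 to 0.0943, so numbers 1 and 3 lay above all of them and number 2 did not. Whether replicates are paired is thus not settled, and the replicate block is an alternative only. With it 0 of all 16556 genes tested passed, so its 0 members called say nothing particular about the members. Their median was 0.24. The unknown depth and the rounding limit genes under 0.5 FPKM.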

Other observations

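In the newer gene name table the same pattern finds 73 further identifiers of the expression table, among them 40 of chemokine genes. In the authors' table these identifiers carry other names or are absent. Some share a name with the 18 that had no row in the expression table, such as il1b, il6st, il10ra and lifra. Such pairs may be the same gene under another identifier, which was not tested. Of the 73, 51 were tested, with 38 on the higher and 13 on the lower side in DN-MAML (median log2 change 0.38). Over all genes tested, 55.1% were on the higher and 44.9% on the lower side (median 0.03). In limma, 1 of the 51 passed as higher and 0 as lower, beside 0.0544% and 0.0423% of all genes tested. At an unadjusted p under 0.05 (limma), 20 were higher and 1 lower, beside 6.99% and 6.23%. Matched by identifier, the authors' deposited table gives an adjusted p for 29 of the 73. It calls 8 of them higher and 0 lower, beside 2.11% and 2.27% of all its genes with one. Its 8 calls are ccl38a.4 (adjusted p = 1.83e-16), ccl38.6 (1.23e-05), cxcl11.8 (0.0011), ccl38a.5 (0.00135), ccl19a.1 (0.0211), ccl34b.4 (0.0231), il7 (0.0263) and cxcl11.5 (0.029). By FPKM, ccl34b.4 (48.2 FPKM over the 6 samples) and ccl34a.4 (41.15 FPKM) stood above every chemokine gene among the 80. By mean normalized count in the authors' deposited table they did not, with 1492 and 184, against 4468 for cxcl12a. This set and the genes named from it were chosen after their values were seen. The gene that passed was ccl38a.4, a CC chemokine gene, with 4.15, 2.95 and 3.18 FPKM in WT and 12.61, 11.89 and 16.88 FPKM in DN-MAML (log2 change 1.86, SE 0.17; limma, adjusted p = 0.0120). It did not pass without WT replicate 3 (adjusted p = 0.0820) or without DN-MAML replicate 2 (0.0558), where 4 of all 16556 genes tested passed in each. Nor did ccl38a.4 pass with the replicate block (0.102), where 0 of all genes tested did. Its namesake ccl38.6 had 3.27, 2.90 and 3.48 FPKM in WT and 6.79, 10.75 and 9.45 FPKM in DN-MAML (1.33, SE 0.17; adjusted p = 0.0529), and passed with 0.1 added to the FPKM (0.0483), without WT replicate 1 (0.0327) or without DN-MAML replicate 1 (0.0383). Reads shared between such copies could be split, and their sequences were not compared.

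The cxcl11 genes, named after the interferon-induced ligand of CXCR3, lay on the higher side too. cxcl11.3 had 5.63, 5.03 and 6.62 FPKM in WT and 9.26, 11.10 and 24.04 FPKM in DN-MAML, and cxcl11.7 had 2.76, 2.08 and 1.51 FPKM in WT and 4.09, 6.50 and 5.92 FPKM in DN-MAML. In both, every DN-MAML sample was above every WT sample (limma, adjusted p = 0.268 and 0.130). The neutrophil chemokine gene cxcl8a had 15.75, 3.07 and 3.04 FPKM in WT and 2.16, 5.61 and 2.29 FPKM in DN-MAML, with WT replicate 1 far above the rest. il1b had 0.87, 0.51 and 0.46 FPKM in WT and 0.72, 0.48 and 0.58 FPKM in DN-MAML. The gp130 gene il6st, the shared receptor chain of the interleukin-6 family, had 25.3 ± 2.51 FPKM in WT and 33.2 ± 5.30 FPKM in DN-MAML (SD, n = 3; limma, adjusted p = 0.312). Another identifier named il6st, with no FPKM row, is at 0.38 in log2 change in the authors' deposited table (adjusted p = 0.120). The interleukin-4 receptor identifier il4r, likewise without an FPKM row, is at 0.23 in the authors' deposited table (unadjusted p = 0.152). Another identifier, named il4r.1, had 13.82, 13.28 and 13.85 FPKM in WT and 17.93, 14.33 and 16.05 FPKM in DN-MAML. Its groups did not overlap, and its log2 change of 0.23 did not pass (limma, adjusted p = 0.409).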
